A study of Homo sapiens with 6 samples.

Results

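The 10 genes described here encode HSF1, the transcription factor of the heat shock response, and 9 chaperones and co-chaperones of the cytosol: HSPA8, HSPA1A, HSPA1B, HSP90AA1, HSP90AB1, HSPH1, DNAJB1, HSPB1 and BAG3. They form a list of named genes with no threshold on their values, and all 10 were found among the 60709 genes of the count table. The cells were SH-SY5Y, an established human neuroblastoma line grown in medium with serum. The control group was 3 samples that received 10 uL of DMSO in 2 mL of medium at 80% confluence and were lysed after 5 h. The treated group was 3 samples that received a fumarate joined to an NRF2-derived peptide in water (2 mg in 600 uL, of which 200 uL went into a well) plus the same 10 uL of DMSO, so that both groups carried DMSO and no untreated cells were among them. The labels name no water addition for the control wells.

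Only the control group could be tied to columns of the table, by the numbers 4, 5 and 6 that the labels and the column headings share. If the headings had been numbered afresh, these 3 libraries could be the peptide-treated ones. Samples given the peptide were not analysed here, so no response to the peptide is reported. All levels below are those of the 3 control libraries. The labels do not say whether the 3 samples came from separate cultures, and the spread between them may be technical.

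In unstressed cells HSF1 is held inactive, in part by chaperones. When unfolded proteins or reactive electrophiles occupy those chaperones or modify cysteines, HSF1 forms trimers and binds heat shock elements, arrays of the 5-base unit nGAAn in alternating orientation. HSP70 proteins bind exposed hydrophobic stretches of a client, J proteins deliver the client and speed ATP hydrolysis, and exchange factors release it. HSP90 acts later on partly folded clients such as kinases and steroid receptors, and small heat shock proteins hold unfolded clients without ATP.

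Library totals ranged from 8887854 to 11397407 counts, and a count of 0 allowed up to 0.339 CPM in the smallest library. Mitochondrially encoded genes took 3.83% to 6.25% of the counts, the most in control replicate 3. Of 7 noradrenergic neuroblastoma markers, 6 had at least 10 counts in every library, and TH had 0 in all 3. Markers of leukocytes, endothelium and glia (9 genes in all) reached at most 7 counts in any library, and of 3 epithelial markers KRT5 and CDH1 had 0 while EPCAM had 11 to 14. Among 5 mesenchymal markers, COL3A1 averaged 316.0 CPM, TWIST1 186.6 CPM and COL1A1 14.4 CPM, while COL1A2 had 1 to 3 counts and PRRX1 had 0.

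Levels are given as CPM (counts per 1000000 counts of the library, scaled between libraries by TMM) and, wherever genes are compared with each other, as CPM per kb of the longest transcript. The heat shock genes took 0.907%, 0.975% and 0.967% of all counts in control replicates 1, 2 and 3, with 95% Wilson intervals of 0.902% to 0.913%, 0.969% to 0.981% and 0.960% to 0.973%. These intervals cover counting error only, and the interval of replicate 1 lay below the other two. HSPA8, HSP90AB1 and HSP90AA1 held 89.7% ± 0.05 (SD, n = 3) of the 10 genes' counts. The median of the 10 genes was 86.8 CPM per kb, against 8.74 over the 13863 genes of known length that reached 10 counts in each of the 3 libraries. HSPA8 ranked 17, HSP90AB1 36 and HSP90AA1 51 of those genes, whereas BAG3 ranked 6976, near the middle.

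**Figure D1:**
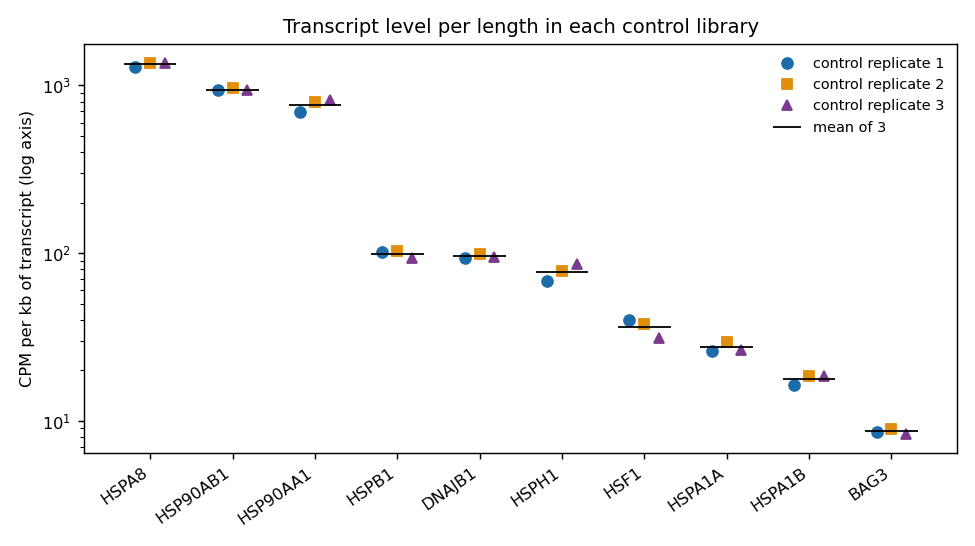
CPM per kb of the longest transcript (log axis) for each of the 10 genes, with each point 1 control library and lines at the mean of 3. The genes spanned from 1341 CPM per kb for HSPA8 to 8.64 for BAG3, and of neighbouring genes only HSPB1 and DNAJB1 had overlapping points.

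HSF1 (ENSG00000185122.11, chr8:144291591-144314722 of GRCh38, plus strand), the factor that switches on the heat shock genes, gave 919, 925 and 589 counts. Its level was 40.1, 37.8 and 31.1 CPM per kb in control replicates 1, 2 and 3, a mean of 36.3 ± 4.71 (SD, n = 3). It was lowest in replicate 3, and 86.5% of the ranked genes lay below its mean. HSF1 transcript levels say nothing of its activity, which is set mainly on the protein. The 3' end of HSF1 and the opposite-strand gene DGAT1 overlap by 139 bases in the GENCODE 29 annotation. DGAT1 gave 452, 430 and 315 counts.

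Among 8 genes of the HSF family and of HSF1 regulators, 7 had at least 10 counts in every library, and the list's median was 12.6 CPM per kb. The highest was PLK1, a mitotic kinase that can phosphorylate HSF1, at 34.4 ± 1.18 CPM per kb (SD, n = 3). Next came HSF2, the related factor that can form mixed trimers with HSF1, at 21.1 ± 0.969. HSF2 stood at 0.522, 0.534 and 0.711 times HSF1 in the 3 libraries, below HSF1 in each. The lowest was HSF2BP, a binding partner of HSF2, with 3 to 6 counts.

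HSPA8 (ENSG00000109971.14, chr11:123057489-123063230, minus strand), the constitutive HSP70 of the cytosol, gave 34134, 38532 and 29621 counts. Its level was 1296, 1369 and 1358 CPM per kb, a mean of 1341 ± 39.4 (SD, n = 3). By the longest transcript it was the most abundant of the 10 genes in every library, and all 3 of its values lay above the highest value of HSP90AB1. Over the union of exons it stood below HSP90AB1, at 0.779, 0.808 and 0.823 times its level.

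HSPA1A (ENSG00000204389.10, chr6:31815464-31817946, plus strand) encodes the strongly stress-inducible HSP70, and gave 689, 840 and 585 counts. Its level was 25.9, 29.6 and 26.6 CPM per kb. HSPA1B (ENSG00000204388.7, chr6:31827735-31830255, plus strand), the neighbouring copy of the same inducible HSP70, gave 438, 532 and 414 counts, or 16.2, 18.5 and 18.5 CPM per kb. HSPA1B lay below HSPA1A in all 3 libraries and held 39.7% ± 1.51 (SD, n = 3) of the pair's counts. The split between the copies is uncertain. The same-strand gene AL671762.1 overlaps HSPA1B by 1422 bases, exons included, and gave 0 counts in all 3 libraries. How reads in that overlap were assigned was not examined. Of all 100-base stretches of the HSPA1A transcript, 69.9% also occur in HSPA1B, and the handling of multi-mapping reads in the counting is not given in the sources used here.

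HSPA8 stood at 30.7, 28.5 and 30.1 times the sum of HSPA1A and HSPA1B, a mean of 29.8 ± 1.15 (SD, n = 3) per kb. The constitutive form thus exceeded the inducible pair by far more than the spread between libraries. The size of the ratio depended on the length used. It was 15.1 ± 0.585 over the union of exons, because the union of exons is 4849 bases for HSPA8 against 2463 in its longest transcript. It was 8.62 ± 0.330 when only positions that begin a unique 100-base stretch counted as length, a choice made after the data were seen. That length would correspond to a counting of single 100-base reads that drops every read shared between genes. The ratio was not computed for other read lengths. By the unique length HSPA1A stood at 94.7 ± 6.74 and HSPA1B at 67.7 ± 4.98 CPM per kb. Under each of these lengths HSPA8 remained at least 8-fold above the inducible pair.

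The start regions of these HSP70 genes carry the heat shock element in different forms, so these stretches are shown here, read 5′ to 3′ on the gene's strand from RefSeq (GRCh38.p14). Capitals mark the fixed letters of the element. HSPA8 has 3 alternating units at -230 (chr11:123062345-123062374) and again at -55 (chr11:123062170-123062199), counted in bases from the annotated start. HSPA1A (chr6:31815383-31815462) and HSPA1B (chr6:31827578-31827657) each have a pair of perfect units, at -106 and -105.
HSPA8 upstream: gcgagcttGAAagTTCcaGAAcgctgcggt
HSPA8 near start: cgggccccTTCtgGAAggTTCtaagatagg
HSPA1A: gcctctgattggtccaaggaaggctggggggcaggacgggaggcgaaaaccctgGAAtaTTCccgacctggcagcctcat
HSPA1B: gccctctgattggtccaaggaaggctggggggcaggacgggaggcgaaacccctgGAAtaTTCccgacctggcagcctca
The 250 bases before the annotated starts of the inducible copies, shifted by 1 base, were identical at 235 of 249 compared bases (94.4%).

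Among the 11 other HSP70 genes, 9 had at least 10 counts in every library, and the list's median was 7.89 CPM per kb. The highest was HSPA5, the HSP70 of the endoplasmic reticulum, at 256.9 ± 23.7 (SD, n = 3), followed by HSPA9, the mitochondrial form, at 87.5 ± 1.10. HSPA5 stood at 0.192 ± 0.0201 times HSPA8. The lowest was HSPA6, a human HSP70 that is induced by severe stress, with 0, 0 and 2 counts. All 3 values of HSPA6 lie at or under the limit that a count of 0 allows.

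DNAJB1 (ENSG00000132002.9, chr19:14514770-14529770, minus strand), the inducible J protein that hands clients to HSP70, gave 2278, 2549 and 1911 counts. Its level was 94.1, 98.5 and 95.3 CPM per kb, a mean of 96.0 ± 2.29 (SD, n = 3). It varied by 1.05-fold between the highest and the lowest library. HSPA8 exceeded it by 14.0 ± 0.246 times. The opposite-strand gene TECR overlaps DNAJB1 by 12686 bases, exons included, and gave 510, 535 and 447 counts. The library kit marks strand, but whether the counting used it is not given in the sources used here.

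The second of 3 annotated starts of DNAJB1 has 2 separate pairs of units, at -77 and -47 (chr19:14518428-14518487), shown because no array of 3 perfect units lies in any of its start windows.
DNAJB1: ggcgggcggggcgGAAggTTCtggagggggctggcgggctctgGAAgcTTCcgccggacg

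All 14 other J protein genes had at least 10 counts in every library, and their median was 26.6 CPM per kb. The highest was DNAJA1, a constitutive partner of HSPA8, at 282.6 ± 15.2 (SD, n = 3). DNAJA1 exceeded DNAJB1 by 2.82, 2.95 and 3.07 times. DNAJC8, a J protein of the spliceosome, followed at 98.0 ± 2.24, and DNAJA4 was lowest at 1.50 ± 0.267.

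HSPH1 (ENSG00000120694.20, chr13:31134974-31162388, minus strand), also called HSP110, is an exchange factor for HSP70 and acts in protein disaggregation. It gave 3786, 4653 and 3957 counts. Its level was 68.2, 78.4 and 86.1 CPM per kb, a mean of 77.6 ± 8.97 (SD, n = 3), with replicate 1 the lowest. HSPA4, its constitutive relative, stood at 0.706 ± 0.0481 times HSPH1 and was lower in all 3 libraries.

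BAG3 (ENSG00000151929.10, chr10:119651370-119677819, plus strand) releases clients from HSP70 and links it to small heat shock proteins and autophagy. It gave 236, 264 and 190 counts, the fewest of the 10 genes. Its level was 8.58, 8.99 and 8.35 CPM per kb, a mean of 8.64 ± 0.324 (SD, n = 3). HSPA8 exceeded BAG3 by 155.4 ± 6.43 times. BAG3 was the one heat shock gene of the 10 whose mean lay below the median of all ranked genes, by a margin smaller than its SD.

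The 8 other genes in the list of BAG family members and exchange factors all had at least 10 counts in every library, with a median of 15.5 CPM per kb. BAG6, which handles mislocalized membrane proteins, was highest at 91.9 ± 5.00 (SD, n = 3) and exceeded BAG3 by 10.6 ± 0.661 times. HSPBP1 followed at 45.1 ± 6.19, and BAG2 was lowest at 2.67 ± 0.366.

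HSP90AB1 (ENSG00000096384.20, chr6:44246166-44253888, plus strand), the constitutive cytosolic HSP90, gave 26915, 29323 and 22116 counts. Its level was 941.2, 959.6 and 934.0 CPM per kb, a mean of 944.9 ± 13.2 (SD, n = 3). HSP90AA1 (ENSG00000080824.19, chr14:102080738-102139699, minus strand), the more inducible form, gave 25980, 31807 and 25335 counts. Its level was 692.1, 793.0 and 815.1 CPM per kb, a mean of 766.7 ± 65.5. The values of the 2 genes did not overlap, and HSP90AA1 varied more between libraries.

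The ratio of HSP90AB1 to HSP90AA1 was 1.36, 1.21 and 1.15, a mean of 1.24 ± 0.110 (SD, n = 3). It was 1.66 ± 0.147 over the union of exons and 1.11 ± 0.0987 over the coding length, above 1 in all 3 libraries. Without a length correction it was 0.944 ± 0.0837, above 1 in 1 of 3 libraries. The order of the HSP90 genes therefore depended on correcting for length.

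HSP90AB1 has an array of 3 units at -165 and another at -112 before the third of its 3 annotated starts, which lies within the gene (chr6:44247763-44247862). HSP90AA1 has 1 array at -88 before the second of its 2 starts (chr14:102087111-102087140). That start also lies within the gene, and all 30 bases shown fall in an annotated HSP90AA1 exon. These arrays are shown because HSP90AB1 and HSP90AA1, with HSPA8, were the 3 most abundant of the 10.
HSP90AB1: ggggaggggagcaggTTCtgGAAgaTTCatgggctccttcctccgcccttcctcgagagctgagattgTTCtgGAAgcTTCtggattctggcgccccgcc
HSP90AA1: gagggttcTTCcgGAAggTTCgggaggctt

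HSP90B1, the HSP90 of the endoplasmic reticulum, stood at 329.7 ± 14.6 CPM per kb (SD, n = 3), or 0.349 ± 0.0147 times HSP90AB1. TRAP1, the mitochondrial form, stood at 30.6 ± 2.85. All 14 HSP90 co-chaperone genes had at least 10 counts in every library, and their median was 30.9 CPM per kb. AHSA1, which stimulates the ATPase of HSP90, was highest at 221.1 ± 4.59, and STIP1, the adaptor that joins HSP70 to HSP90, followed at 158.7 ± 4.38. TTC4 was lowest at 1.25 ± 0.289.

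HSPB1 (ENSG00000106211.10, chr7:76302544-76304295, plus strand), the small heat shock protein HSP27, gave 1571, 1708 and 1210 counts. Its level was 101.0, 102.7 and 93.9 CPM per kb, a mean of 99.2 ± 4.66 (SD, n = 3). Its range overlapped that of DNAJB1, and the ratio of HSPB1 to DNAJB1 was 1.03 ± 0.0446, above 1 in 2 of 3 libraries. HSPB1 lay above all 8 other small heat shock protein genes in the list. Of those 8, 2 had at least 10 counts in every library, and none lay above the median of all ranked genes.

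HSPB8, a partner of BAG3, was the highest of those 8 at 0.892 ± 0.185 CPM per kb (SD, n = 3), followed by HSPB7 at 0.738 ± 0.0792. HSPB2, HSPB9 and the lens gene CRYAA had 0 counts in all 3 libraries. CRYAB, the widely expressed alpha-B crystallin, had 2, 0 and 0 counts.

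The 8 genes of the CCT chaperonin, the cytosolic chamber that folds actin and tubulin, all lay above the median of all ranked genes, with a list median of 150.2 CPM per kb. CCT3 was highest at 299.2 ± 5.04 (SD, n = 3), CCT7 next at 227.8 ± 16.9 and CCT4 lowest at 80.0 ± 3.02. Of the mitochondrial chaperonin pair, HSPD1 stood at 197.8 ± 16.7 and HSPE1 at 19.2 ± 6.53, the latter from 146, 180 and 224 counts. Overlaps with other annotated genes were examined for the 10 heat shock genes only, not for the related genes. Besides those named above, opposite-strand WDR20 overlaps HSP90AA1 by 197 bases, exons included, and gave 478, 496 and 381 counts. AC233992.1 overlaps HSF1 and MIR639 overlaps DNAJB1, each with 0 counts. SNORD14C, SNORD14D and SNORD14E overlap HSPA8 on the same strand, with at most 7 counts in any library. Over all 75 related genes, 66 had at least 10 counts in every library and 52 lay above the median of all ranked genes, against 9 of the 10 heat shock genes.

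**Figure D2:**
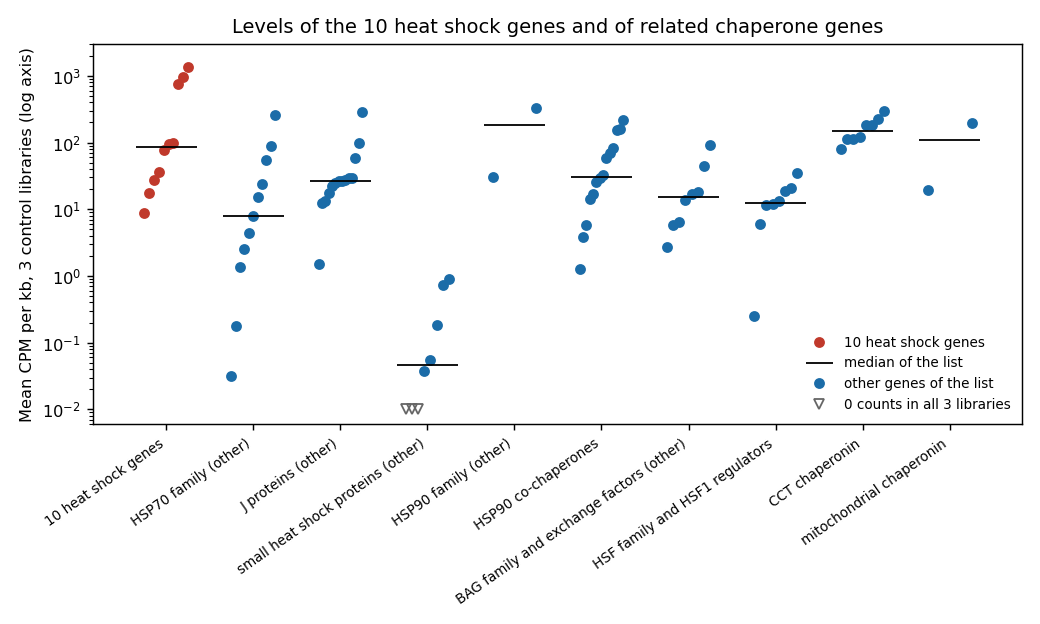
Mean CPM per kb over the 3 control libraries (log axis) for the 10 heat shock genes and 75 related chaperone genes grouped by family, with lines at each list's median. Triangles mark 3 small heat shock protein genes with 0 counts in all libraries. HSPA8, HSP90AB1 and HSP90AA1 lay above every related gene, the highest of which was HSP90B1 at 329.7.

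Processed pseudogenes share sequence with several of these genes. HSP90AB3P gave 60, 68 and 56 counts, which is 0.235% of those of HSP90AB1, HSP90AB2P gave 6, 10 and 2, and HSP90AB7P 1, 1 and 0. HSP90AA2P gave 16, 25 and 11 counts, and HSP90AA3P, HSP90AA4P, HSP90AA5P and HSP90AA6P gave at most 3 in any library. Of 17 HSPA8 pseudogenes, 11 (HSPA8P1, HSPA8P3, HSPA8P4, HSPA8P5, HSPA8P7, HSPA8P9, HSPA8P11, HSPA8P13, HSPA8P14, HSPA8P15 and HSPA8P19) held 41 counts together over the 3 libraries. DNAJB1P1, HSPB1P1 and HSPB1P2 held 1 or 2 counts each. Reads lost to such copies or left uncounted cannot be seen in the table.

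The length used also moved genes with long noncoding exons in the order. HSPA8 stood at 1.42 times HSP90AB1 by the longest transcript and at 1.47 times by the coding length, against a mean of 0.803 ± 0.0222 (SD, n = 3) over the union of exons. HSF1 stood at 2.06 times HSPA1B by the longest transcript and at 0.833 over the union of exons. HSPA1A stood at 0.762 times HSF1 by the longest transcript and at 1.89 times over the union of exons. Over unique 100-base stretches, chosen after the data were seen, HSPA1A averaged 94.7 and HSPA1B 67.7 CPM per kb. By that length HSF1 averaged 38.1, HSPH1 79.1 and DNAJB1 100.4, so both copies lay above HSF1. HSPB1 stood at 1.49 times DNAJB1 over the union of exons and at 0.664 times with no length correction, below 1 in all 3 libraries. DNAJB1 stood at 1.25 times HSPH1 by the longest transcript and at 0.544 times with no length correction.

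**Figure D3:**
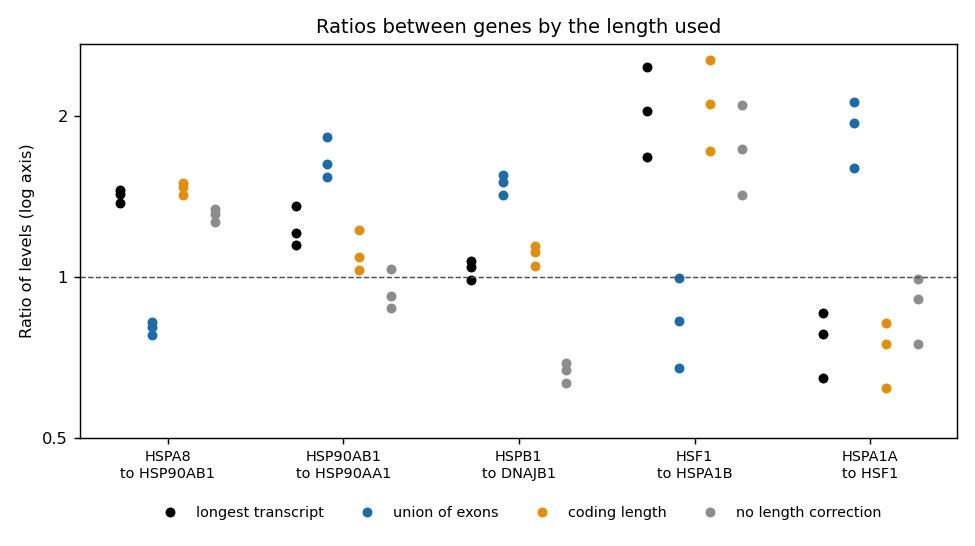
Ratio of levels (log axis) for 5 pairs of genes, with each point 1 control library and colours for the length used. The dashed line marks equal levels, and HSPA8 to HSP90AB1 crosses it between the longest transcript (1.42) and the union of exons (0.803).

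The next question was whether the 10 genes were steady between the control libraries. A chi-square test of each gene's counts across the 3 libraries, adjusted by Benjamini-Hochberg over the 13920 genes that reached 10 counts in each library, asks whether a gene varied beyond counting error, and compares libraries, not conditions. HSF1, HSPA8, HSP90AA1, HSP90AB1 and HSPH1, 5 of 10, passed at 0.05, against 27.2% of all tested genes. Deeply counted genes pass more easily. Of tested genes averaging 1000 counts or more, 57.7% passed, and of the 6 heat shock genes of that depth 4 passed.

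HSP90AA1 gave the smallest adjusted p, 1.5e-85, with 2429, 2783 and 2861 CPM. It was lowest in replicate 1, by 1.18-fold against replicate 3. HSPH1 had 354.0, 407.2 and 446.8 CPM (adjusted p = 1.5e-21), also lowest in replicate 1. HSPA8 had 3192, 3372 and 3345 CPM (adjusted p = 3.9e-12), a range of 1.06-fold that its depth was enough to separate.

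HSF1 had 85.9, 80.9 and 66.5 CPM (adjusted p = 6.1e-05), lowest in replicate 3. HSP90AB1 had 2517, 2566 and 2497 CPM (adjusted p = 0.0254), the narrowest range of the 10 at 1.03-fold. That call ended with RLE size factors (adjusted p = 0.0920). Without replicate 3, 3 genes passed (HSPA8, HSP90AA1 and HSPH1), HSF1 had an adjusted p of 0.601, and 3.01% of all tested genes passed. That 3.01% is over genes of all depths and is not matched to the depth of the 10 genes. Without replicate 1, 4 genes passed (HSF1, HSP90AA1, HSP90AB1 and HSPH1), against 16.4% of all tested genes. HSPA8 then had an adjusted p of 0.540. Without replicate 2, 4 genes passed (HSF1, HSPA8, HSP90AA1 and HSPH1), against 28.5% of all tested genes. These shares are likewise over genes of all depths.

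HSPA1A, HSPA1B, DNAJB1, HSPB1 and BAG3 did not pass, with adjusted p of 0.0757, 0.191, 0.429, 0.131 and 0.830. Counting error alone was 2.29% of the count for DNAJB1 and 7.25% for BAG3 in replicate 3. HSPA1A and HSPA1B each varied by 1.14-fold between their highest and lowest library, and BAG3 by 1.08-fold.

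None of the 10 genes differed by 1.3-fold or more between any pair of libraries. Of all tested genes 8.79% did between replicates 1 and 2, 18.3% between replicates 1 and 3, and 12.5% between replicates 2 and 3. Shallow genes make up much of those shares. Among the 9932 genes with 100 counts or more in each library, a depth that all 10 heat shock genes reached, the shares were 1.07%, 10.7% and 4.73%, so that 0 of 10 is near the share of genes of like depth. HSF1 came closest at 1.29-fold, followed by HSPH1 at 1.26-fold. The median coefficient of variation of the 10 genes was 5.91%, against 8.69% over all tested genes. For the 6 heat shock genes averaging 1000 counts or more it was 3.82%, against 5.76% over all genes of that depth. After each library's GC trend was removed this order turned, with 4.95% for the 6 genes against 3.63%.

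The 3 libraries also differed in how counts depended on the GC content of the transcript. The genes with the largest difference of replicate 3 from the other two stood near the ends of the GC range. HSF1, at 63.9% GC, was lower in replicate 3 by a log2 difference of -0.33, and -0.11 after each library's GC trend was removed. HSPH1, at 40.0% GC, was higher by 0.23, and 0.06 after removal. HSP90AA1, at 45.2% GC, came next, higher by 0.13, and 0.10 after removal. The difference became larger in size for HSPA1A (-0.06 to 0.11), HSPA1B (0.10 to 0.24) and DNAJB1 (-0.01 to 0.09). The cause of these differences was not tested.

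After removal 6 of 10 genes passed the chi-square test, against 8.08% of all tested genes. That share is over genes of all depths. Deeply counted genes pass more easily, and their share after removal was not computed, so no excess is read from this. HSF1 (adjusted p = 0.581) and HSP90AB1 (adjusted p = 0.203) no longer passed. HSPA1A (adjusted p = 0.0325), HSPA1B (adjusted p = 0.0161) and DNAJB1 (adjusted p = 0.0413) now did, while HSPA8, HSP90AA1 and HSPH1 passed both ways. The SD between libraries was smaller after removal for HSF1, HSP90AA1, HSP90AB1 and HSPH1 and larger for the other 6 genes. HSPB1, at 64.3% GC, went from -0.12 to 0.11. RNA quality was not tested.

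**Figure D4:**
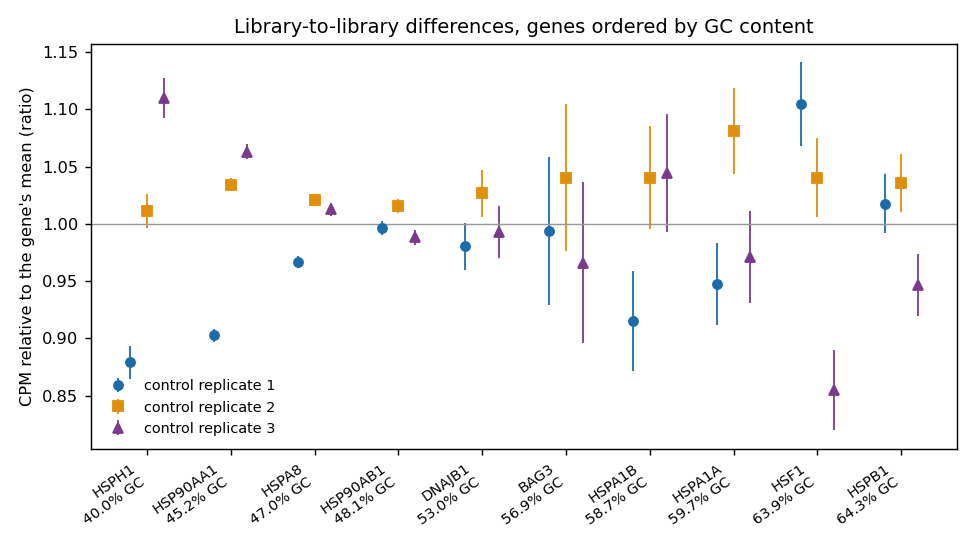
CPM of each of the 10 genes in each control library as a ratio to the gene's mean over the 3 libraries (y axis), as deposited, with genes ordered from low to high GC content (x axis) and bars for counting error. Replicate 3 is the highest for HSPH1 (40.0% GC), HSP90AA1 (45.2% GC) and HSPA1B (58.7% GC). It is the lowest for HSP90AB1 (48.1% GC), BAG3 (56.9% GC), HSF1 (63.9% GC) and HSPB1 (64.3% GC).

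Heat shock elements were searched on both strands from 250 bases before to 50 after each RefSeq start. The table gave windows for 9 of the 10 genes. An array of 3 perfect units (GAANNTTCNNGAA or TTCNNGAANNTTC) was found in HSPA8, HSP90AA1 and HSP90AB1, against 0.608% of 27305 genes and 0.490% of 35116 windows. A pair of units (GAANNTTC or TTCNNGAA), which every array of 3 contains, was found in 7 of 9 genes, against 16.2% of all genes. HSPH1 and BAG3 had neither in their windows.

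Of 63 related genes with a window, 5 had the array of 3 units: HSPA6, DNAJA1, DNAJB6, CHORDC1 and HSPD1. Their levels ran from 0.0318 CPM per kb for HSPA6 to 282.6 for DNAJA1, so genes with the array included both nearly silent and abundant ones. The CCAAT box (CCAAT or ATTGG), known as a site of the factor NF-Y, was in 5 of 9 heat shock genes, against 39.7% of all genes. TATAAA on the gene's strand was in HSPA1A and HSPA1B, against 8.99% of all genes. A match describes letters only, and binding was not measured.

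**Figure D5:**
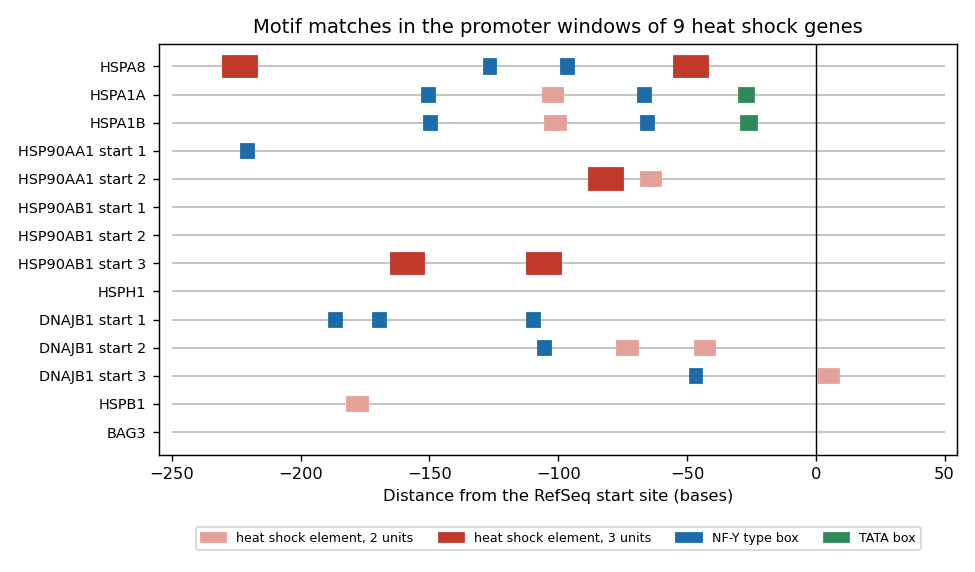
Position of motif matches in bases from the annotated start (x axis) in the start windows of 9 heat shock genes, 1 line per annotated start, coloured by motif, with pairs inside an array of 3 drawn under it. HSPA8 and the third start of HSP90AB1 each hold 2 arrays of 3 heat shock units and the second start of HSP90AA1 holds 1, while HSPH1 and BAG3 hold no match.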

How the data were processed

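The authors deposited unnormalized counts as whole numbers, 1 row for each Ensembl gene, per the file headers. The authors' tools included fastp 0.21.1, STAR 2.7.7a and featureCounts with GRCh38, per the submitters' processing notes. Annotation release, strand setting and multi-mapping are not given in the sources used here. Of 6 sample columns, 3 match no sample number in the labels and were not used. Of 60710 genes, 1 had no value. Symbols matched 60480 identifiers.

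TMM factors came from edgeR 4.0.16 and RLE factors from DESeq2 1.42.0 (R 4.3.3). Lengths and locations came from GENCODE 29. The GC trend used 50 bins of 10290 nuclear genes averaging 100 counts or more. The chi-square test (2 degrees of freedom, scipy 1.17.1) was tested on simulated data: of 200 among 13920 genes changed in 1 library, it called 5.5% at 1.1-fold, 50.5% at 1.3-fold and 92.5% at 2-fold. The simulated counts held counting error alone, without a GC trend, and covered genes of all depths. These rates are therefore not those of the deeply counted heat shock genes.

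All 10 genes are reported, and of each related list the highest, next and lowest gene, those at 0 and pseudogenes with counts. Members and lists were chosen with earlier results of these data known.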

Additional observations from a re-analysis of the deposited data

How the results depend on the processing

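The HSP90AB1 to HSP90AA1 ratio (1.24) moved to 1.66 over the union of exons, 1.11 over the coding length and 0.944 with no length correction, so only the last turned the order. The HSPA8 to HSPA1A plus HSPA1B ratio (29.8) moved to 15.1 over the union of exons, to 49.1 against HSPA1A alone and to 8.62 over unique 100-base stretches, the last chosen after seeing the data. With mitochondrially encoded genes left out, the combined share moved from 0.950% to 0.997% and the genes' median level from 180.8 to 189.8 CPM, a rise of 4.97%. With all libraries 5 genes differed between libraries, against 27.2% of all tested genes. Without replicates 1, 2 and 3 in turn, 4, 4 and 3 genes did, against 16.4%, 28.5% and 3.01%. With each library left out in turn, the HSP90 ratio ran from 1.18 to 1.29 and the HSPA8 ratio from 29.3 to 30.4. Over all genes tested, 3790 differed between libraries, 1125 after removal of the GC trend and 432 without replicate 3. In every scaling, filter and GC setting run, and with each library left out, 0 of 10 genes passed 1.3-fold. The share of all tested genes that did so in any pair ran from 9.58% (without replicate 3) to 43.8% (minimum of 1 count). It was 18.5% with the GC trend removed. At a minimum of 100 counts, which all 10 genes reached, it was 12.6%, so no steadiness particular to the 10 genes is read from this. Peptide against control and its alternatives (a replicate block, DESeq2) were not run. No paired analysis was possible because only the control group had matched columns. Counting error is largest for BAG3, HSPA1B and HSPA1A among the 10 genes, and HSPA6, CRYAB and HSF2BP are too shallow to compare.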
